A study of Mus musculus with 22 samples.

Results

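DNA methylation (5mC) and hydroxymethylation (5hmC) were described at 10 genes for neuronal RNA-binding and RNA-editing proteins in cortex, olfactory bulb and cerebellum of the mouse. The genes were Rbfox1, Rbfox3, Celf2, Celf4, Nova1, Khdrbs2, Elavl2, Elavl4, Adarb2 and Ralyl, out of 21728 protein-coding genes of GENCODE release M21. A gene was represented by every 100 kb bin of the 5mC tables and every 1 Mb bin of the 5hmC tables that overlapped its annotated span, with 500 kb on either side as flanks. This gave 66 of 26327 bins for 5mC and 14 of 2641 bins for 5hmC. The names were picked by protein function with earlier results of these libraries already known, so the levels of the 10 genes are a description without tests.

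All tissues came from female C57BL/6 mice at 8 weeks of age, for which the labels named no treatment and no genetic change. The 5mC levels came from oxBS-seq, in which 5hmC is oxidized before bisulfite treatment so that only 5mC is read as cytosine, with 3 libraries from cortex and 2 from each of the other tissues. The 5hmC levels came from TAB-seq, where a glucose shields 5hmC while all 5mC is oxidized, with 3 libraries per tissue. Replicates were from independent mice, and whether the tissues of a replicate shared a mouse could not be told. The cortex was the whole cerebral cortex without hippocampus, and the other tissues were taken whole. In such bulk tissue fewer cells carrying a mark cannot be told apart from a lower level per cell, and the tissue labels could not be checked against marker genes because no expression table was analysed here.

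Both marks differed between the tissues over the whole genome. The library medians over the 25664 usable 100 kb bins were 0.697 ± 0.0152 (SD, n = 3) for 5mC in cortex, 0.729 ± 0.00154 (SD, n = 2) in the olfactory bulb and 0.753 ± 0.0110 (SD, n = 2) in cerebellum. Replicate 3 of the cortex had the lowest 5mC median, at 0.679. The medians over the 2581 usable 1 Mb bins of 5hmC were 0.175 ± 0.0102 in cortex, 0.152 ± 0.00478 in the olfactory bulb and 0.0931 ± 0.00199 in the cerebellum (n = 3 for each, SD). On the log2(level/(1 - level)) scale the median 5mC bin lay 0.23 higher in olfactory bulb and 0.41 higher in cerebellum than in cortex, and the matching differences of the median 5hmC bin were -0.24 and -1.04. Gene differences are therefore given as deposited and again after each library's median was subtracted, which is called the relative difference below. The read depth behind a bin was unknown.

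The proteins act on RNA after transcription and are best known from neurons. RBFOX, NOVA and KHDRBS proteins choose exons during splicing, CELF proteins act on splicing as well as on the stability and translation of mRNA, and the neuronal ELAVL proteins stabilize mRNAs rich in A and U. ADAR enzymes convert adenosine to inosine in double-stranded RNA, and ADARB2, which is also called ADAR3, binds such RNA without known editing activity. Neuronal genes of this kind are often very long, and 5hmC in brain is known to be abundant in the bodies of transcribed neuronal genes.

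The members were long genes. Their spans ran from 124 kb for Nova1 to 1526 kb for Rbfox1, and 91.4% of protein-coding genes were shorter than Nova1. All 66 bins of 100 kb and all 14 bins of 1 Mb were usable, meaning that no library listed them at 0 or 1. The genes took between 12.4% (Nova1) and 56.6% (Adarb2) of the 1 Mb bins that held them, so the 5hmC level of a gene always included neighbouring sequence.

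To show how the CpG content around annotated starts varies among stretches of the genes described below, RefSeq windows of 300 bases (250 before and 50 after the start, build GRCm38.p6, the same chromosomes as mm10) are printed with every CG in capitals. The table held 21 windows for 8 of the 10 genes. Of its 32851 windows 94.6% had at least 1 CG, and the median was 7, counted as the letters CG, which read the same on both strands. The Celf2 window lies in the bin of lowest 5mC of that gene, the Rbfox3 window in the cerebellar 5mC trough, the outer and inner Rbfox1 windows on either side of a step in cerebellar 5mC, and the Adarb2 window in its lowest bin.
Celf2, chr2:6871986-6872285, minus strand: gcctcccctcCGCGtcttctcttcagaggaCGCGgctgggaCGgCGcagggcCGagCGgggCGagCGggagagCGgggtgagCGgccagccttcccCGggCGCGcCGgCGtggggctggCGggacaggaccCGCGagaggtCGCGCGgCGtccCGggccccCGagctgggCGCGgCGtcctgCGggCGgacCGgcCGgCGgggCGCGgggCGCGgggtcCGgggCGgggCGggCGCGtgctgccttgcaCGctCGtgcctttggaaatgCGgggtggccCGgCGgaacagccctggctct
Rbfox3, chr11:118760992-118761291, minus strand: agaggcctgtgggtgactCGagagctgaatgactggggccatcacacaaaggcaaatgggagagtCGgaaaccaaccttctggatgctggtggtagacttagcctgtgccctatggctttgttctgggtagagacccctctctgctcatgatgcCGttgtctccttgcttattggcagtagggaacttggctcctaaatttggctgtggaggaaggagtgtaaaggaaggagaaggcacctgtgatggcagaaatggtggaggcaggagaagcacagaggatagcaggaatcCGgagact
Rbfox1 outer, chr16:5884543-5884842, plus strand: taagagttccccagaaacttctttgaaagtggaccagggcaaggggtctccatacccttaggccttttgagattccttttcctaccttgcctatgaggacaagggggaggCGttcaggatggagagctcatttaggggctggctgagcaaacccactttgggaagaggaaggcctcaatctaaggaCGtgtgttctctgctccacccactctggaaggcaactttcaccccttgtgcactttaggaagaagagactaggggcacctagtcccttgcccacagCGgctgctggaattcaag
Rbfox1 inner, chr16:7069585-7069884, plus strand: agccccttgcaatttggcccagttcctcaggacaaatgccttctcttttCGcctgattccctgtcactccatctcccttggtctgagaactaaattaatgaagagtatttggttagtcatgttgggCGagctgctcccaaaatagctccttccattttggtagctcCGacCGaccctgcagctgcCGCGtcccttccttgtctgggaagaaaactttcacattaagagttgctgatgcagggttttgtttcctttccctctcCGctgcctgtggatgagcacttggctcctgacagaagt
Adarb2, chr13:8202616-8202915, plus strand: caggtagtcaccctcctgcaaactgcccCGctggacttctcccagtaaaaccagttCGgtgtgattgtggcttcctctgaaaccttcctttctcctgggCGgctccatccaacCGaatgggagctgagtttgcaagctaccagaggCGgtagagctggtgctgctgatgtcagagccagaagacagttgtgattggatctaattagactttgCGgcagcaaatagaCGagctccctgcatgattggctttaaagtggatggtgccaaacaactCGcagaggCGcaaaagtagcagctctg

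The Celf2 window held 48 CG, more than 98.8% of all windows. The Rbfox3 window held 4, the outer Rbfox1 window 3, the inner Rbfox1 window 7 and the Adarb2 window 9. Thus the bins of low 5mC included a CG-rich start at Celf2 and a start somewhat above the median at Adarb2. They also included starts at or below the median, at Rbfox3 and the inner Rbfox1 window.

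As a group, the genes carried less 5mC than the DNA on either side. The mean over the 10 genes of the level in the gene minus the level in its flanks was -0.0852 ± 0.00559 in cortex (SD over 3 libraries), -0.0938 ± 0.00482 in the olfactory bulb (n = 2) and -0.100 ± 0.00123 in cerebellum (n = 2). The value was below 0 in every library for 9 genes in cortex, 10 in the olfactory bulb and 9 in cerebellum. Among 2485 protein-coding genes of at least 100 kb that share was 54.0%, 55.5% and 50.6%, and their median gene minus flank values were -0.0150, -0.0124 and -0.00416. The median over the 10 genes was -0.0869 in cortex, -0.0741 in the olfactory bulb and -0.0643 in cerebellum. Unlike the mean, it was thus shallowest in cerebellum. The exception in cortex and cerebellum was Adarb2, at 0.0115 ± 0.00476 and 0.0181 ± 0.00236, which turned to -0.0829 ± 0.00396 in the olfactory bulb. The deepest values belonged to Celf4, at -0.169 in cortex, -0.261 in the olfactory bulb and -0.274 in cerebellum, and to Rbfox3 in cerebellum, at -0.263. The median usable bin of the genome held 7.51 CpG per kb. Rbfox3 (14.3 CpG per kb), Celf4 (10.7), Elavl2 (7.76) and Elavl4 (7.53) were above that, and 5 of the 10 genes were richer in CpG than their flanks. The part of CpG content in the lower 5mC was not tested.

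**Figure D1:**
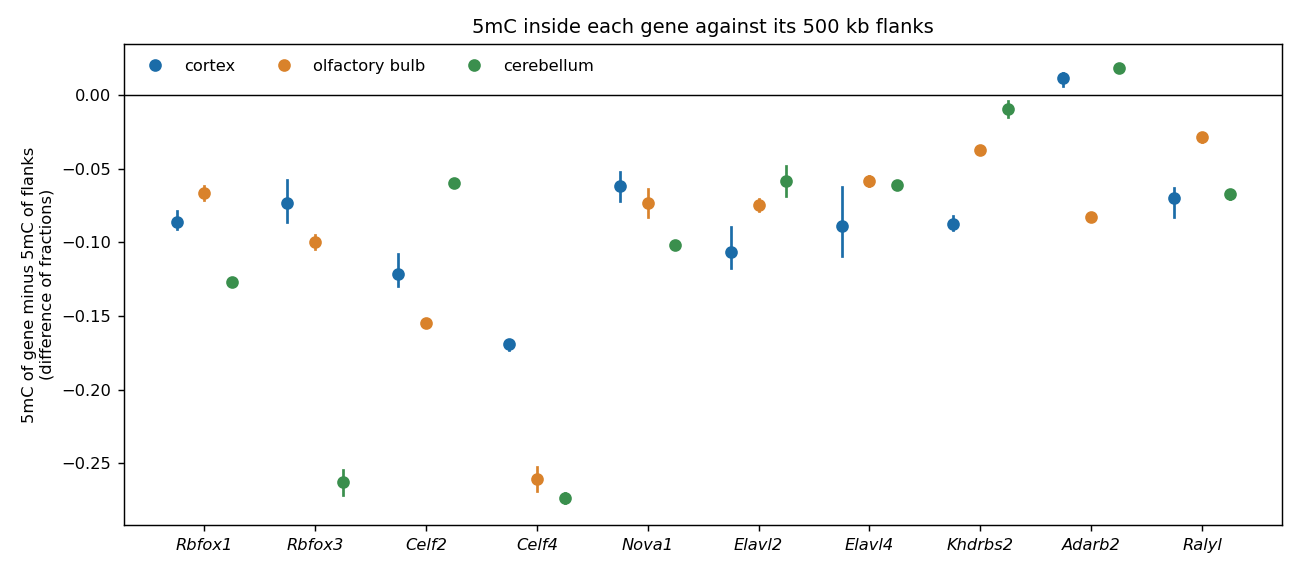
5mC level of each gene minus that of its 500 kb flanks (y axis, difference of fractions) for 10 genes in 3 tissues, with points for the tissue mean and lines for the range over libraries (3 of cortex, 2 of each other tissue). Nearly all points lie below 0, Celf4 and cerebellar Rbfox3 lie lowest, and only Adarb2 in cortex and cerebellum lies above 0.

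Pooled over the genes, bins that contained an annotated start of a coding transcript of that gene had a lower mean 5mC than the others. The mean over the 25 bins with a start was 0.574 in cortex, 0.598 in the olfactory bulb and 0.619 in cerebellum, against 0.632, 0.662 and 0.696 over the 41 bins without one. The ranges overlapped widely, from 0.351 to 0.686 with a start and from 0.449 to 0.759 without one in cortex. Compared within the 9 genes that have both kinds of bin, all but Elavl4, the mean of bins with a start was the lower in 9 of 9 genes in each tissue. The median difference was -0.0439 in cortex, -0.0542 in the olfactory bulb and -0.0385 in cerebellum. The size varied widely, from -0.221 at Elavl2 in cortex to -0.000568 at Rbfox3 in cerebellum, and the lowest bin of Celf4 held no start. The bins were not matched for position or CpG content. The matching share among other long genes was not computed, so the 9 of 9 is not read as particular to these genes.

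**Figure D2:**
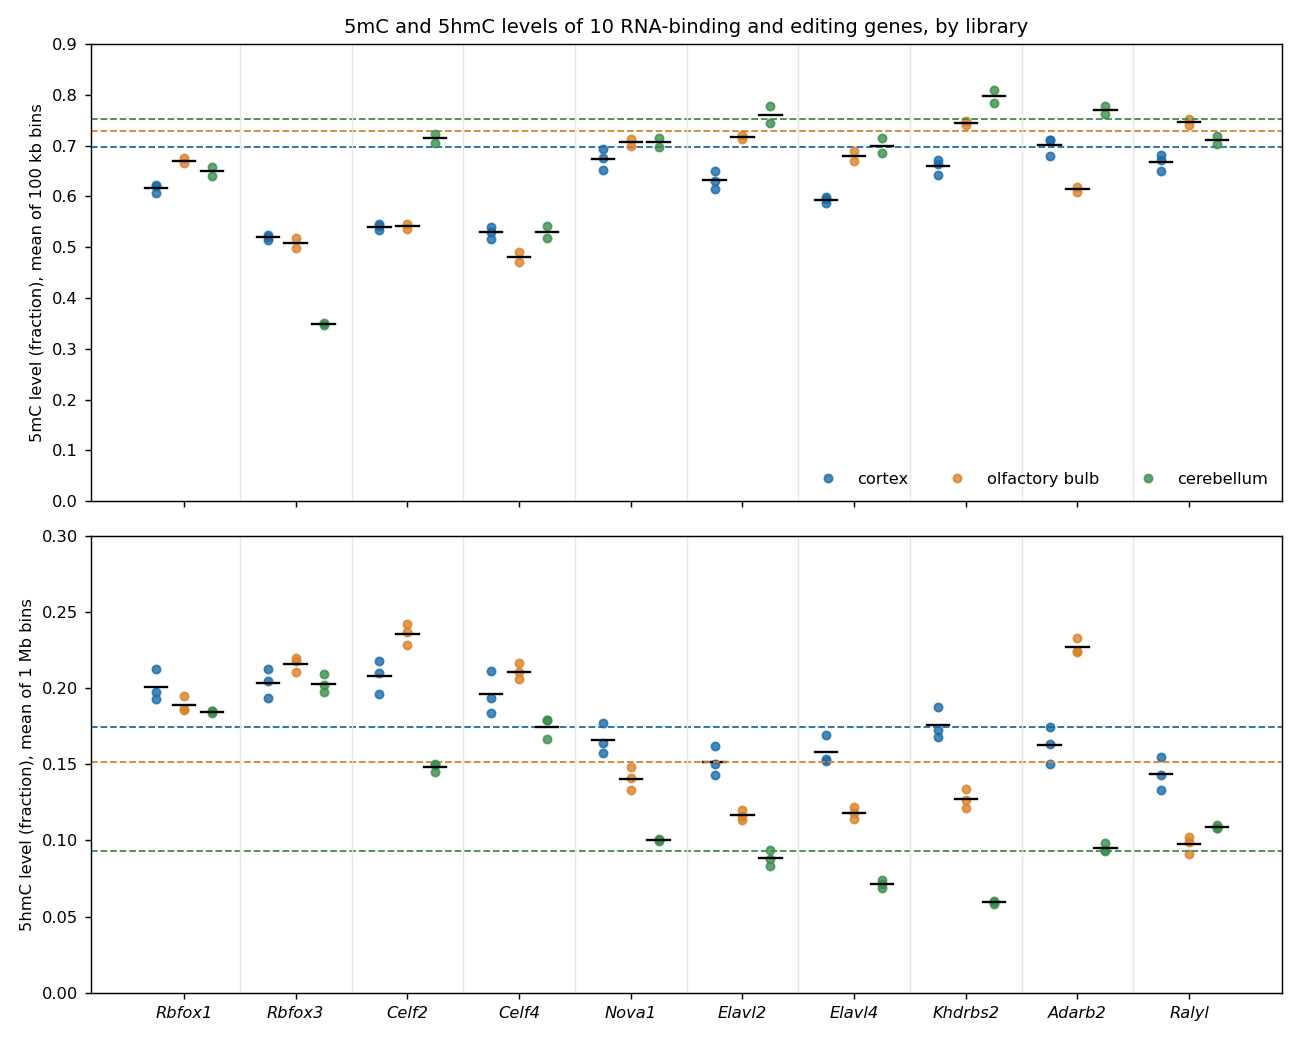
5mC level (upper panel, mean of 100 kb bins) and 5hmC level (lower panel, mean of 1 Mb bins), as fractions, of 10 genes. Points are single libraries, black bars tissue means and dashed lines the tissue's median over the genome, and the points to see are the low cerebellar 5mC of Rbfox3, the high cerebellar 5mC of Celf2 and the high 5hmC of Adarb2 in the olfactory bulb.

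Rbfox3 encodes NeuN, the nuclear protein used as a marker of most mature neurons, and spans chr11:118489762-118911597 on the minus strand. Its 5mC level was 0.521, 0.524 and 0.514 in the 3 cortex libraries, 0.519 and 0.499 in the olfactory bulb libraries, and 0.350 and 0.346 in the cerebellum libraries. Both cerebellum libraries were far below all others, whereas cortex and olfactory bulb overlapped. Cerebellum minus cortex was -0.171 ± 0.00578, where the error of a difference is the square root of the summed variances of both tissues, and the relative difference was -0.228 ± 0.0132. The cerebellar mean lay at percentile 0.234 of all usable bins.

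The low cerebellar 5mC filled the inside of Rbfox3. Over the 4 bins wholly inside the gene (chr11:118500001-118900000) the level was 0.518 ± 0.00241 in cortex, 0.493 ± 0.0185 in the olfactory bulb and 0.254 ± 0.00507 in cerebellum. The outermost bins at both ends were 0.522 ± 0.0168, 0.541 ± 0.00406 and 0.535 ± 0.00242 in the same order. There cortex overlapped both other tissues, and cerebellum lay just below olfactory bulb without overlap. This division, like the other divisions of genes into stretches below, was made after the values were seen. The lowest single bin was the second from the 5′ end (chr11:118800001-118900000), with 0.214 ± 0.000218 in cerebellum against 0.525 ± 0.0101 in cortex.

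5hmC at Rbfox3 was about as high in cerebellum as in cortex, unlike at most of the genome. Its 1 Mb bin (chr11:118000001-119000000, 42.2% of it in the gene, with Cyth1, Dnah17 and Timp2 among 11 other coding genes) gave 0.205, 0.212 and 0.194 in cortex, 0.218, 0.220 and 0.211 in the olfactory bulb, and 0.202, 0.197 and 0.209 in cerebellum. Cerebellum and cortex overlapped, with a difference of -0.000696 ± 0.0112, while relative to the library medians cerebellum was higher by 0.0809 ± 0.00509. The cerebellar value lay at percentile 99.0 of its tissue. In this bin the sum of the 5mC and 5hmC levels, which come from different libraries, was 0.766 ± 0.0150 in cortex, 0.782 ± 0.0123 in the olfactory bulb and 0.675 ± 0.00858 in cerebellum.

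Rbfox1, the splicing factor of the same family, is the longest member (chr16:5885355-7411526, plus strand, 17 bins). Its 5mC level was 0.622, 0.621 and 0.606 in cortex, 0.676 and 0.666 in the olfactory bulb, and 0.658 and 0.641 in cerebellum. The levels ran cortex, cerebellum, olfactory bulb without overlap. Cerebellum minus cortex was 0.0334 ± 0.0150 as deposited and -0.0230 ± 0.00687 after the medians were subtracted, so the direction depends on the scale.

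The gene mean of Rbfox1 hid a step in cerebellum. The first 5 bins (chr16:5800001-6300000) stood at 0.738 ± 0.00653 in cerebellum, above cortex at 0.622 ± 0.0167 and olfactory bulb at 0.676 ± 0.00654. From the sixth bin on, over 10 bins (chr16:6300001-7300000), cerebellum stood at 0.586 ± 0.0174, below olfactory bulb at 0.657 ± 0.00791. Its libraries spanned 0.573 to 0.598 there and overlapped those of cortex, at 0.595 to 0.605. An annotated coding start at position 6349138 lies in the sixth bin. In the last 2 bins cerebellum was again highest, at 0.749 ± 0.00118 against 0.678 and 0.726.

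In 5hmC the middle of the 3 bins of Rbfox1 was highest in cerebellum. It covers the last 3 of the 5 bins of high cerebellar 5mC and the first 7 of the 10 bins after the step. This bin, chr16:6000001-7000000, lies wholly in Rbfox1, with no other coding gene, and gave 0.227 ± 0.0102 in cortex, 0.221 ± 0.00497 in the olfactory bulb and 0.263 ± 0.00450 in cerebellum. The cerebellar value was at percentile 99.9 of that tissue and above both others. The bin before it, of which 11.5% is Rbfox1 and which holds Ppl, Sec14l5 and Ubn1 among 10 other coding genes, was at 0.176 in cortex and 0.109 in cerebellum, and the bin after it at 0.199 and 0.182. As a plain mean of the 3 bins the libraries gave 0.198, 0.212 and 0.193 in cortex, 0.186, 0.195 and 0.186 in the olfactory bulb, and 0.184, 0.185 and 0.185 in cerebellum. Cerebellum minus cortex was -0.0163 ± 0.0102 for this mean, turned to 0.0138 when bins were weighted by the bases of Rbfox1 in them, and was 0.0653 ± 0.00199 relative to the medians.

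Celf2, a regulator of splicing and mRNA stability, spans chr2:6539694-7509563 on the minus strand over 11 bins and behaved in cerebellum in the opposite way to Rbfox3. Its 5mC level was 0.542, 0.546 and 0.533 in cortex, 0.545 and 0.537 in the olfactory bulb, and 0.723 and 0.706 in cerebellum. Cortex and olfactory bulb overlapped, and both cerebellum libraries were far above them. Cerebellum minus cortex was 0.174 ± 0.0135, and 0.118 ± 0.00892 relative to the medians, the largest relative difference in that direction among the 10 genes. Olfactory bulb and cortex, alike as deposited, differed by -0.0315 ± 0.0101 relative to the medians.

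The 5mC profile of Celf2 had a common low point. The bin chr2:6800001-6900000, which holds the CG-rich window printed above, was the lowest of the gene in every tissue, with 0.351 ± 0.0177 in cortex, 0.269 ± 0.0101 in the olfactory bulb and 0.416 ± 0.0275 in cerebellum. From this bin to the 3′ end (4 bins) the levels were 0.459 ± 0.00845, 0.390 ± 0.00500 and 0.591 ± 0.0161. In the 7 bins toward the 5′ end they were 0.587 ± 0.00673, 0.627 ± 0.00701 and 0.785 ± 0.00907. Olfactory bulb was therefore below cortex in the 3′ stretch and above it in the 5′ stretch, and the gene means of both tissues nearly cancelled. Cerebellum was highest in both stretches.

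5hmC at Celf2 was 0.210, 0.218 and 0.196 in cortex, 0.237, 0.242 and 0.228 in the olfactory bulb, and 0.150, 0.145 and 0.149 in cerebellum. The 3 tissues did not overlap. Olfactory bulb exceeded cortex by 0.0277 ± 0.0128 as deposited and by 0.0505 ± 0.00570 relative to the medians, against the general direction as deposited. Cerebellum minus cortex was -0.0597 ± 0.0112 as deposited and 0.0218 ± 0.00419 relative to the medians. The bin with the 3′ stretch (chr2:6000001-7000000) was the richer in each tissue, at 0.226, 0.242 and 0.189 against 0.190, 0.229 and 0.108 in the 5′ bin. Of the richer bin 46.0% is Celf2, and it holds Usp6nl, Upf2 and Proser2 among 4 other coding genes. It also takes in the part of the 5′ stretch from chr2:6900001 to 7000000. The 5′ bin is 51.0% Celf2 with no other coding gene, so the contrast is not one within Celf2 alone.

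Celf4, a second CELF protein, lies on chr18:25477632-25754157 (minus strand, 4 bins). At Celf4 the 5mC level was 0.531, 0.540 and 0.517 in cortex, 0.490 and 0.470 in the olfactory bulb, and 0.542 and 0.518 in cerebellum. Olfactory bulb was below both other tissues, which overlapped. Relative to the medians the order was olfactory bulb at -0.249 ± 0.0124, cerebellum at -0.223 ± 0.00616 and cortex at -0.167 ± 0.00621. The low level belonged to the first 3 bins (0.480 ± 0.00851 in cortex, 0.405 ± 0.0126 in the olfactory bulb and 0.454 ± 0.0223 in cerebellum), and the fourth, mostly outside the gene, was at 0.675, 0.705 and 0.757. 5hmC was 0.193, 0.211 and 0.184 in cortex, 0.211, 0.216 and 0.206 in the olfactory bulb, and 0.179, 0.166 and 0.179 in cerebellum, a bin of which 27.7% is Celf4. Relative to the medians, cerebellum exceeded cortex by 0.0602 ± 0.00755 and olfactory bulb exceeded cortex by 0.0375 ± 0.00480.

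**Figure D3:**
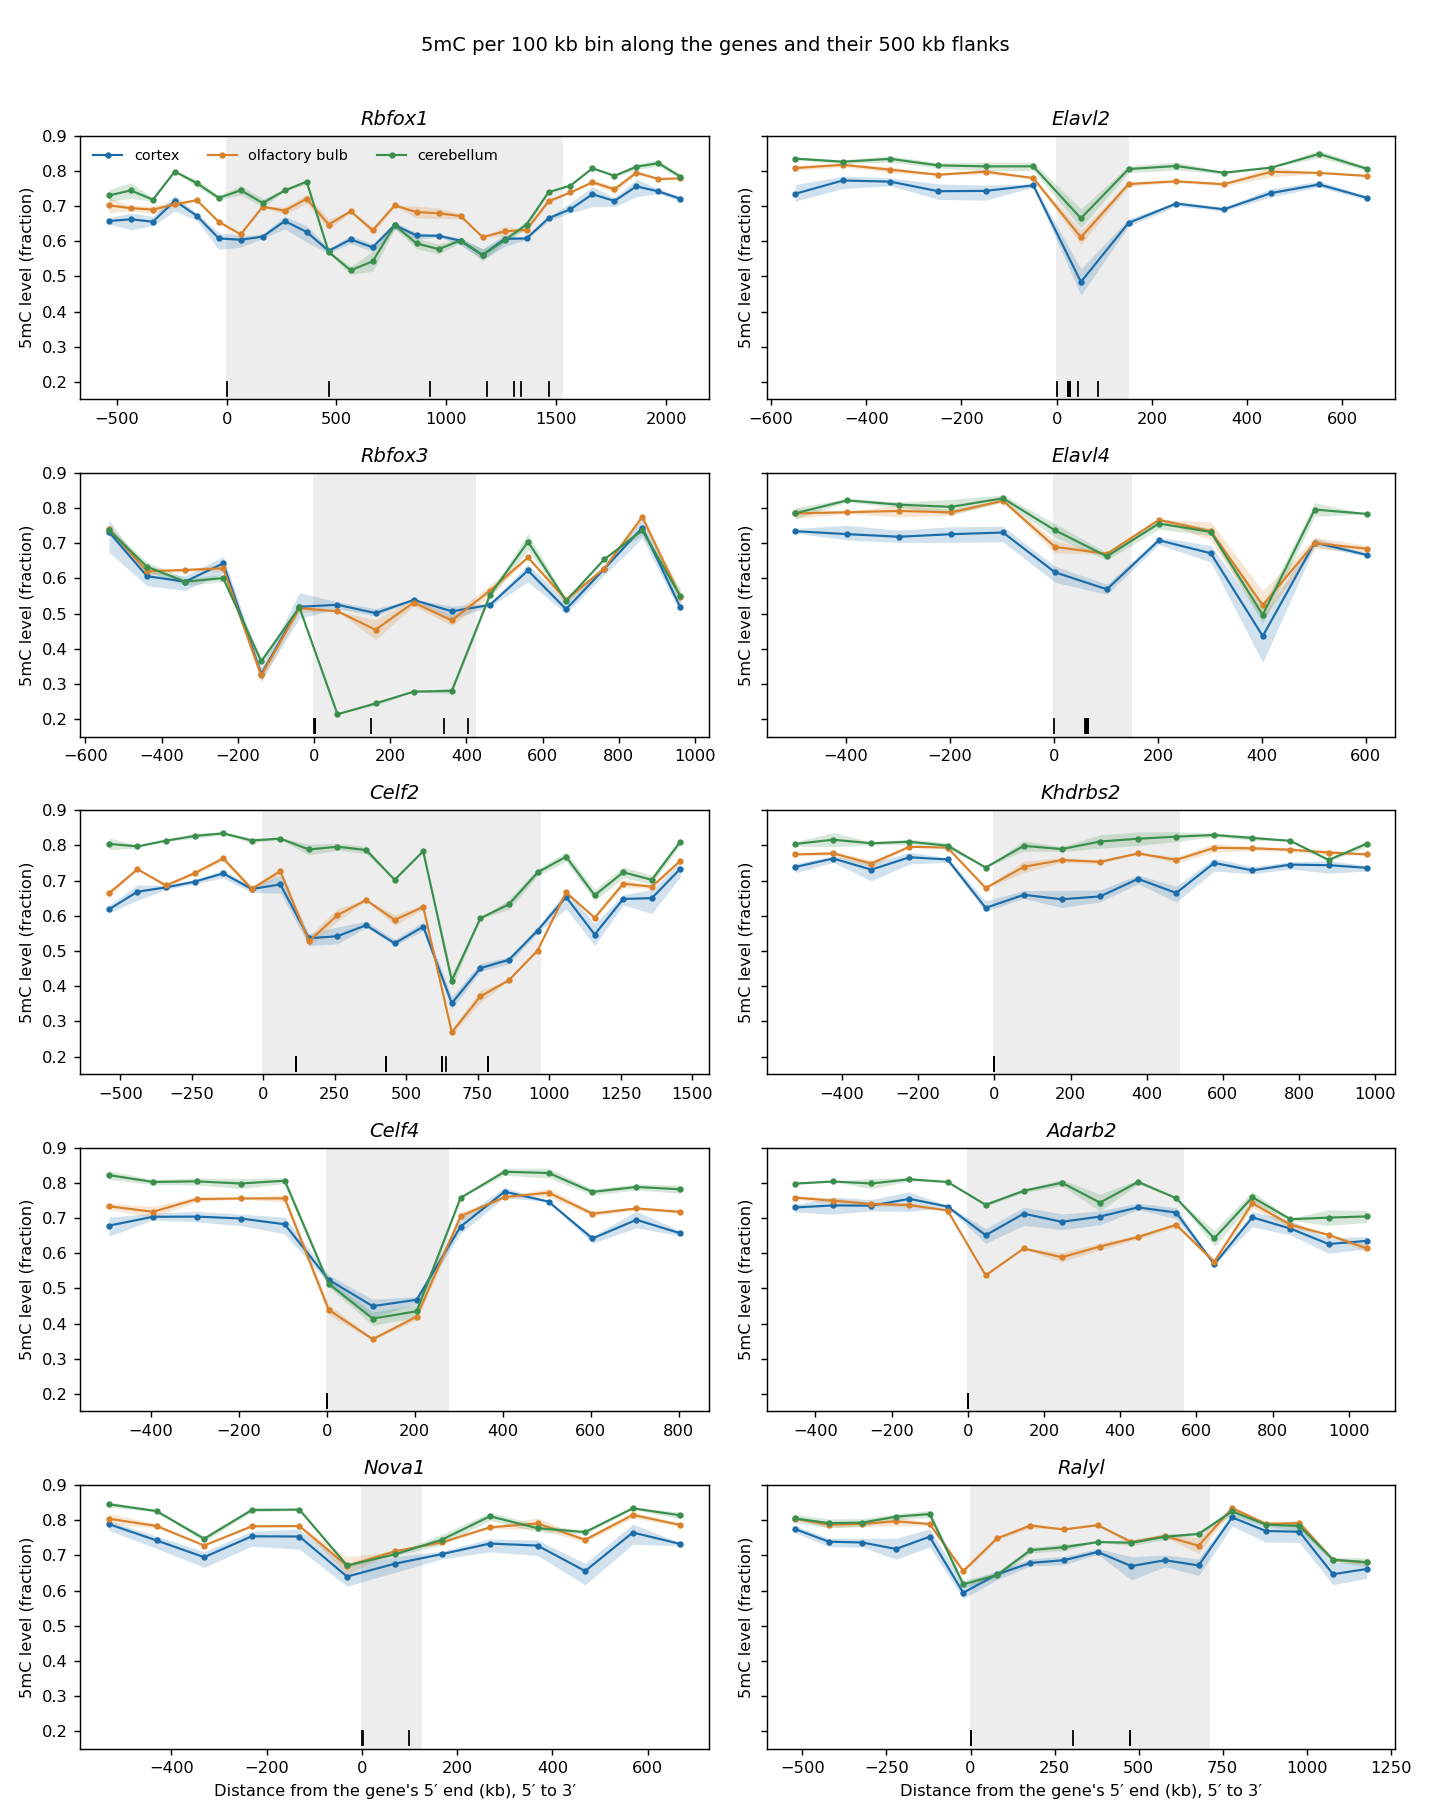
5mC level (y axis, fraction) per 100 kb bin against the distance from the gene's 5′ end in kb (x axis, 5′ to 3′) for 10 genes. Lines are tissue means, bands the range over libraries, grey areas the gene and black ticks annotated coding starts. The cerebellum line drops inside Rbfox3 to between 0.214 and 0.280, steps down in Rbfox1 near the second start, and stays above the other lines along Celf2, while the olfactory bulb line is lowest along Adarb2.

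Nova1, a neuronal splicing regulator (chr12:46694517-46818929, minus strand, 3 bins), had the smallest relative differences in 5mC of the 10 genes, judged by each gene's largest. The gene's 5mC level was 0.675, 0.693 and 0.651 in cortex, 0.713 and 0.699 in the olfactory bulb, and 0.714 and 0.698 in cerebellum. Olfactory bulb minus cortex was 0.0331 ± 0.0230 as deposited and 0.00105 ± 0.0121 relative to the medians, where the libraries overlapped. For cerebellum minus cortex the values were 0.0331 ± 0.0238 as deposited and -0.0233 ± 0.00894 relative to the medians. 5hmC was 0.164, 0.177 and 0.157 in cortex, 0.133, 0.148 and 0.141 in the olfactory bulb, and 0.100, 0.100 and 0.101 in cerebellum, from a bin with 12.4% of its bases in Nova1 and no other coding gene.

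Khdrbs2, which encodes the splicing factor SLM1 (chr1:32172714-32658568, plus strand, 6 bins), stepped up in 5mC from cortex to olfactory bulb to cerebellum. The libraries gave 0.672, 0.663 and 0.643 in cortex, 0.740 and 0.749 in the olfactory bulb, and 0.809 and 0.785 in cerebellum. No tissues overlapped, and the order held relative to the medians, at -0.0374 ± 0.00499, 0.0160 ± 0.00744 and 0.0440 ± 0.00644. The order held along the whole gene, since each of the 6 bins had its lowest mean in cortex and its highest in cerebellum. 5hmC followed the reverse order, with 0.172, 0.187 and 0.168 in cortex, 0.122, 0.134 and 0.127 in the olfactory bulb, and 0.0586, 0.0603 and 0.0597 in cerebellum. Of that 1 Mb bin 48.6% is Khdrbs2, and Gm5415 is the other coding gene in it. Khdrbs2 had the lowest cerebellar 5hmC of the 10 genes, and cerebellum minus cortex was -0.0348 ± 0.00265 relative to the medians.

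Elavl2 and Elavl4 encode the neuronal Hu proteins HuB and HuD, which bind and stabilize mRNAs. Elavl2 (chr4:91250763-91400785, minus strand, 3 bins) had 5mC levels of 0.631, 0.649 and 0.614 in cortex, 0.721 and 0.714 in the olfactory bulb, and 0.777 and 0.745 in cerebellum. Cortex lay below both other tissues, with relative differences of 0.0539 ± 0.00943 for olfactory bulb and 0.0729 ± 0.0148 for cerebellum. Its middle bin (chr4:91300001-91400000), which holds all 11 annotated coding starts, was lowest in each tissue, at 0.484 ± 0.0374, 0.611 ± 0.0289 and 0.665 ± 0.0382. 5hmC of Elavl2 was 0.150, 0.162 and 0.143 in cortex, 0.116, 0.120 and 0.114 in the olfactory bulb, and 0.0936, 0.0833 and 0.0879 in cerebellum. Only 15.0% of that 1 Mb bin is Elavl2, with no other coding gene in it. Relative to the medians the cerebellum exceeded cortex by 0.0181 ± 0.00564, the reverse of the difference as deposited.

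Elavl4 (chr4:110203722-110351909, minus strand, 2 bins, both only partly in the gene) had 5mC levels of 0.595, 0.586 and 0.599 in cortex, 0.690 and 0.671 in the olfactory bulb, and 0.715 and 0.685 in cerebellum. Cortex was again lowest, and olfactory bulb and cerebellum overlapped. The relative differences from cortex were 0.0546 ± 0.0238 in the olfactory bulb and 0.0501 ± 0.0228 in cerebellum. 5hmC was 0.153, 0.169 and 0.152 in cortex, 0.118, 0.122 and 0.114 in the olfactory bulb, and 0.0741, 0.0689 and 0.0714 in cerebellum. Only 14.8% of that 1 Mb bin is Elavl4, and Agbl4 is the other coding gene in it. Relative to the medians, cerebellum and cortex overlapped at Elavl4, with a difference of -0.00519 ± 0.00445.

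Adarb2, the ADAR3 gene, which is also known as a marker of a class of cortical interneurons (chr13:8202866-8768747, plus strand, 6 bins), stood apart in olfactory bulb. Its 5mC level was 0.711, 0.710 and 0.679 in cortex, 0.619 and 0.609 in the olfactory bulb, and 0.778 and 0.762 in cerebellum. Both olfactory bulb libraries were below every other library. Olfactory bulb minus cortex was -0.0863 ± 0.0196, and -0.118 ± 0.00665 relative to the medians. The lower level ran along all 6 bins. It was farthest from cortex in the first bin (chr13:8200001-8300000), at 0.651 ± 0.0213 in cortex, 0.537 ± 0.00212 in the olfactory bulb and 0.738 ± 0.00603 in cerebellum, and closest in the last, at 0.715, 0.681 and 0.756.

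5hmC at Adarb2 was highest where 5mC was lowest. It was 0.163, 0.175 and 0.150 in cortex, 0.224, 0.233 and 0.225 in the olfactory bulb, and 0.0929, 0.0936 and 0.0983 in cerebellum, in a bin of which 56.6% is Adarb2 and which holds Wdr37, Gtpbp4 and Idi2 among 5 other coding genes. All tissues were separate. Olfactory bulb exceeded cortex by 0.0643 ± 0.0133 as deposited and by 0.0872 ± 0.00287 relative to the medians, and none of 2486 protein-coding genes of at least 100 kb had a higher relative difference in that comparison. The sum of 5mC and 5hmC in this bin was 0.859 ± 0.0202 in cortex, 0.873 ± 0.00562 in the olfactory bulb and 0.858 ± 0.0136 in cerebellum, while 5hmC made up 19.0%, 26.0% and 11.1% of it.

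Ralyl, which encodes an RNA-binding protein similar to RALY (chr3:13471655-14182287, plus strand, 8 bins), was the reverse of Adarb2 in the olfactory bulb. For Ralyl the 5mC level was 0.671, 0.681 and 0.650 in cortex, 0.740 and 0.752 in the olfactory bulb, and 0.718 and 0.704 in cerebellum, with no overlap between tissues. Olfactory bulb minus cortex was 0.0784 ± 0.0175, and 0.0463 ± 0.0105 relative to the medians. The cerebellum and cortex differed by 0.0433 ± 0.0187 (cerebellum minus cortex) as deposited but by -0.0131 ± 0.00426 relative to the medians. In the first 4 bins cerebellum (0.675 ± 0.0136) lay between cortex (0.651 ± 0.0103) and olfactory bulb (0.740 ± 0.00598). In the last 4 bins cerebellum (0.747 ± 0.00705) and olfactory bulb (0.751 ± 0.0101) overlapped, and both exceeded cortex (0.684 ± 0.0209).

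5hmC at Ralyl was 0.143, 0.155 and 0.133 in cortex, 0.0911, 0.102 and 0.0989 in the olfactory bulb, and 0.110, 0.109 and 0.108 in cerebellum. As deposited, Ralyl was the only 1 of the 10 genes with more 5hmC in cerebellum than in olfactory bulb in every library, by 0.0117 ± 0.00581. Of 2486 coding genes of at least 100 kb, 1.17% were so. Relative to the medians 7 of the 10 genes were higher in cerebellum without overlap, against 55.2% of the 2486. For Ralyl that relative difference was 0.0705 ± 0.00447. The excess at Ralyl as deposited came from the bin chr3:13000001-14000000, which contains no other coding gene, at 0.150 ± 0.00289 in cerebellum against 0.0960 ± 0.00469 in the olfactory bulb. In the next bin, of which 18.2% is Ralyl and which holds Car1, Lrrcc1 and E2f5 among 8 other coding genes, cerebellum was lower, at 0.0684 against 0.0989.

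Counted per gene, 5mC of the libraries did not overlap between olfactory bulb and cortex for 6 genes that were higher in olfactory bulb and 2 that were lower, against 66.2% and 6.32% of 2485 coding genes of at least 100 kb. Between cerebellum and cortex 8 were higher and 1 lower, against 82.5% and 4.95%. Between cerebellum and olfactory bulb 5 were higher and 3 lower, against 69.9% and 13.4%. Relative to the medians these splits became 5 higher and 4 lower (29.1% and 32.8%), 5 and 5 (48.5% and 29.5%), and 5 and 4 (50.6% and 30.8%).

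For 5hmC as deposited, 2 genes were higher and 5 lower in olfactory bulb than in cortex, against 2.65% and 62.9%. In cerebellum 9 were lower and 0 higher than in cortex (98.0% and 0.161%), and 9 were lower and 1 higher than in olfactory bulb (95.0% and 1.17%). Relative to the medians the splits were 5 higher and 4 lower (47.9% and 29.4%), 8 and 1 (58.5% and 28.6%), and 7 and 3 (55.2% and 33.4%). The 3 comparisons share libraries and are not independent of each other.

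The same was counted for bins with limma over the whole table (Benjamini-Hochberg adjusted p below 0.05). Of the 66 bins of 5mC, 35 were higher and 12 lower in olfactory bulb than in cortex, against 37.6% and 2.18% of all bins, and these 47 fell to 29 without olfactory bulb replicate 1 and to 30 without olfactory bulb replicate 2. Between cerebellum and cortex 43 were higher and 5 lower (71.9% and 4.44%), and between cerebellum and olfactory bulb 33 and 16 (35.3% and 7.69%). On centred levels the counts were 16 and 18 (8.81% and 9.9%), 25 and 22 (25.7% and 24.3%), and 23 and 22 (22.1% and 21.3%). Of the 14 bins of 5hmC, 2 were higher and 7 lower in olfactory bulb than in cortex (3.25% and 67.7%), 1 and 11 in cerebellum than in cortex (0.426% and 97.6%), and 2 and 10 in cerebellum than in olfactory bulb (1.2% and 91.8%). Centred, these were 8 and 5 (36.2% and 33.0%), 11 and 2 (50.3% and 40.1%), and 10 and 3 (50.9% and 39.1%). Neighbouring bins of 1 gene are not replicates, and because the genes were chosen with results known, nothing is read from these counts.

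Setting both marks side by side, relative differences in 5mC and 5hmC had opposite signs for 9 of the 10 genes between olfactory bulb and cortex, 7 between cerebellum and cortex and 8 between cerebellum and olfactory bulb. The same held for 68.1%, 61.5% and 66.5% of 2485 coding genes of at least 100 kb. The genes with equal signs were Rbfox1 in the first comparison, Celf2, Elavl2 and Adarb2 in the second, and Elavl2 and Celf4 in the third. Some opposite signs rested on overlapping libraries. This was so for both marks of Nova1 in the first comparison. At Elavl4 it was so for 5hmC in the second and for 5mC in the third.

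**Figure D4:**
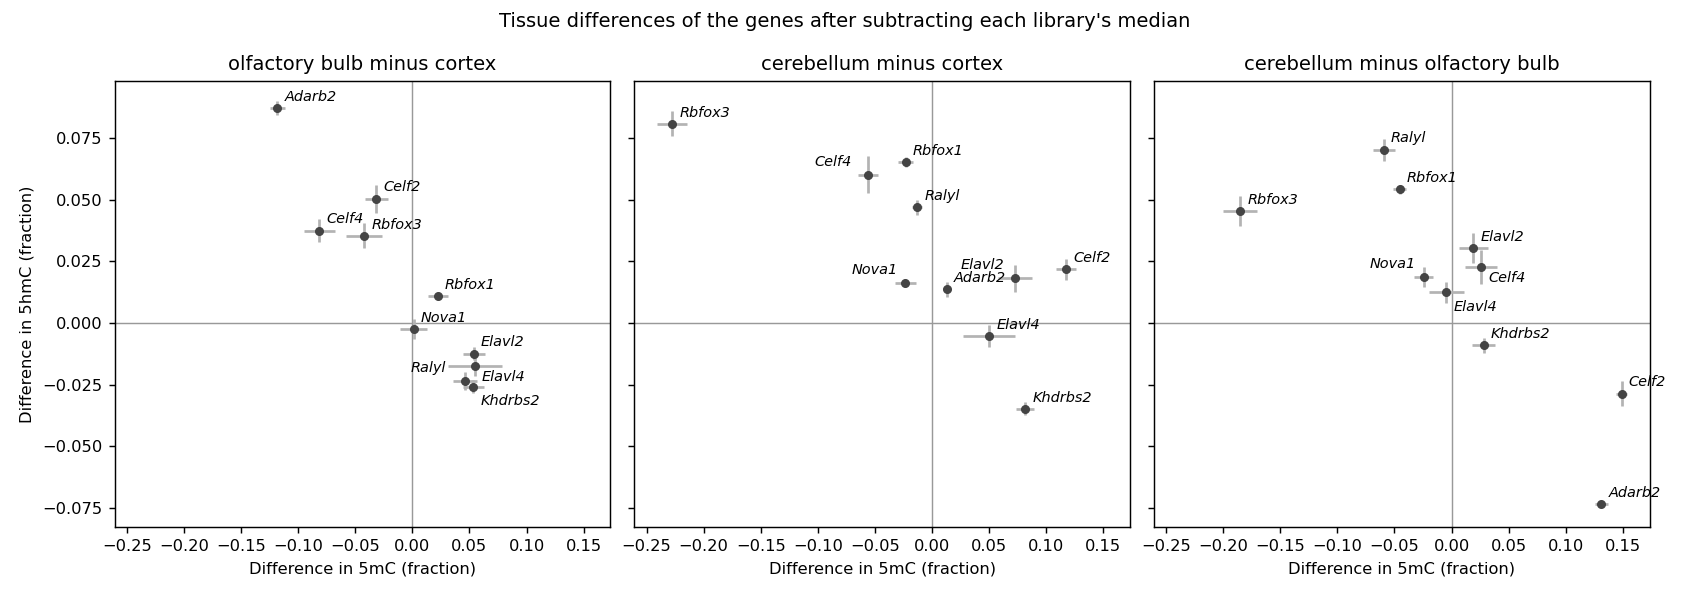
Relative difference in 5hmC (y axis) against that in 5mC (x axis), as fractions after each library's median was subtracted, for 10 genes in 3 pairs of tissues, with error bars of the square root of the summed variances. Adarb2 lies at the upper left between olfactory bulb and cortex (-0.118 and 0.0872), Rbfox3 at the upper left in both cerebellar comparisons, and Khdrbs2 at the lower right between cerebellum and cortex.

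Other genes for RNA-binding proteins were measured in the same way. Of 14 relatives in the same families (Rbfox2, Celf1, Celf3, Celf5, Celf6, Nova2, Elavl1, Elavl3, Khdrbs1, Khdrbs3, Adar, Adarb1, Raly and Hnrnpc), 4 were higher and 6 lower in relative 5mC in cerebellum than in cortex without overlap, and their median relative difference was -0.00473. Of 36 other splicing, translation and RNA-transport factors 12 were higher and 10 lower, with a median of 0.00521, beside 0.0106 over 2485 coding genes of at least 100 kb and -0.000129 over the 10 members. In olfactory bulb against cortex the medians were -0.0188 for the relatives, -0.0138 for the other factors and 0.0117 for the members, beside -0.00166. For 5hmC in cerebellum against cortex they were 0.0348, 0.0170 and 0.0199, beside 0.0103. The most negative differences in 5mC, from cortex to cerebellum, on either list were at Srrm4, a neuronal microexon splicing factor (0.580 ± 0.00439 to 0.508 ± 0.00541), Elavl3 (0.474 ± 0.0265 to 0.414 ± 0.0189) and Adar (0.525 ± 0.0274 to 0.487 ± 0.0257). The most positive were at Qk, a splicing factor of glia (0.427 ± 0.0142 to 0.616 ± 0.0116), Khdrbs3 (0.563 ± 0.00943 to 0.746 ± 0.0244) and Ptbp3 (0.607 ± 0.0109 to 0.719 ± 0.0167). None of the genes on either list was as far below 0 as Rbfox3 at -0.171, and Qk and Khdrbs3, at 0.188 and 0.184, were slightly above Celf2 at 0.174. Over the 2485 long coding genes the relative differences ran from -0.296 to 0.209, beyond Rbfox3 at -0.228 and Celf2 at 0.118.

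For each member the protein-coding gene of at least 100 kb on another chromosome with the most similar levels was found, by the root mean square difference over the 16 libraries of both marks. These were Grk3 for Rbfox1 (0.0106), Zmiz1 for Rbfox3 (0.0253), Myt1l for Celf2 (0.0183), Gse1 for Celf4 (0.0144), Abcc9 for Nova1 (0.00634), Gas2 for Elavl2 (0.0147), Cacna1b for Elavl4 (0.0154), Edil3 for Khdrbs2 (0.00927), Synpr for Adarb2 (0.0206) and Ppfibp2 for Ralyl (0.0110). Rbfox3 was the member whose nearest gene was farthest away, and Nova1 the one whose nearest gene was closest.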

How the data were processed

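The authors deposited, per library, a fraction for each bin, the 5mC level in 100 kb bins from oxBS-seq and the 5hmC level in 1 Mb bins from TAB-seq. Reads had been mapped uniquely to mm10 with Bismark, and a site's level was the share of reads with C among those with C or T. How sites were combined into bins is not given in the sources used here, and without coverage no counting error could be computed.

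The 16 libraries (7 oxBS-seq, 9 TAB-seq) were grouped by the labelled tissue. A gene's level in a library was the plain mean of the bins overlapping its GENCODE M21 span, and flanks were the bins within 500 kb. The 10 genes, the other lists and the most similar genes were chosen by rules written with earlier results of these data known. All 10 genes are named, and of the lists the 3 most negative and 3 most positive 5mC differences between cerebellum and cortex. Bins listed at 0 or 1 in any library were left out. Bins were compared with limma 3.58.1 (R 4.3.3) on log2(level/(1 - level)) in 1 fit of all tissues per assay, with Benjamini-Hochberg adjustment over all bins, tested on simulated data. The simulated bins were independent, with 1 common spread and no shift of whole libraries. The simulation therefore cannot show how calls behave under the library shifts of the real data. The alternatives were the fraction scale, centring, all bins kept (limited to 0.001 to 0.999), trended and robust variances, weighting by bases, only bins wholly inside, flanks of 1 Mb, a replicate block and leaving out each library. The RNA-seq samples of the series were not analysed here. Promoter windows were taken from RefSeq (GRCm38.p6).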

Additional observations from a re-analysis of the deposited data

Results flagged for a closer look

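The following genes stood on opposite sides of a reference in different tissues, with every library of 1 tissue above it and every library of another below it. The difference between the tissues was not tested in any of these cases, since the genes were chosen with results known.

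Against their own flanks, the 5mC levels of Adarb2 were 0.0115 in cortex and 0.0181 in cerebellum but -0.0829 in the olfactory bulb. Against the library median over all bins, Adarb2 was at 0.00383 in cortex, 0.0167 in cerebellum and -0.115 in the olfactory bulb for 5mC, and at -0.0119 in cortex, 0.0753 in the olfactory bulb and 0.00186 in cerebellum for 5hmC. Ralyl was at -0.0290 in cortex, 0.0173 in the olfactory bulb and -0.0422 in cerebellum for 5mC, and at -0.0309, -0.0544 and 0.0161 for 5hmC. Khdrbs2 was at -0.0374, 0.0160 and 0.0440 for 5mC. Nova1 was at -0.00868, -0.0111 and 0.00748 for 5hmC, small values on either side of the median.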

How the results depend on the processing

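Of 1352 alternative values for 165 results, 1246 stayed within the criteria for agreement (1.5 times for a count, the spread between libraries for a level or difference) and 106 did not. Leaving out a library cannot move a level or difference beyond that spread, so agreement there was fixed in advance. The replicate block likewise leaves the 5hmC differences unchanged, because all tissues have the same replicate numbers. The total is therefore no measure of robustness. In all, 26 alternative values changed the sign of a difference, several of them for the same difference. In 21 of these the difference was smaller than its error. Subtracting library medians changed the mean difference over the 10 genes most. For 5mC it went from 0.0278 to -0.00424 (olfactory bulb minus cortex), from 0.0556 to -0.000825 (cerebellum minus cortex) and from 0.0277 to 0.00341 (cerebellum minus olfactory bulb). For 5hmC it went from -0.00887 to 0.0140, from -0.0533 to 0.0283 and from -0.0444 to 0.0143. Gene minus flanks deepened when bins were weighted by bases (-0.0996 in cortex, -0.106 in olfactory bulb, -0.120 in cerebellum) or taken only wholly inside (-0.109, -0.119, -0.137, without Elavl4, which has no such bin), and was -0.0948 in cerebellum with flanks of 1 Mb. Rbfox1 5hmC, cerebellum minus cortex, was 0.0138 weighted by bases, and cerebellum minus olfactory bulb turned from -0.00439 to 0.0228. Of the values for single genes, 90 moved, 38 under weighting, 35 with bins wholly inside and 17 with wider flanks.

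Leaving out 1 library at a time, the called 5mC bins of the members ranged from 29 to 47 between olfactory bulb and cortex, lowest without olfactory bulb replicate 1, from 42 to 49 between cerebellum and cortex and from 34 to 51 between cerebellum and olfactory bulb. Same-numbered libraries of different tissues did not deviate together throughout (correlations of -0.0906 to 0.0158 for 5mC, and of -0.229 to 0.344 with a mean of 0.00181 for 5hmC), so the numbers were not taken to pair the samples. With so few libraries the correlations cannot exclude that tissues shared a mouse. The errors of the tissue differences treat the libraries as unpaired. With the replicate block the called 5mC bins were 47, 49 and 51, and the 5hmC bins 9, 12 and 12. The numbers in the library names match oxBS-seq libraries across tissues differently from those in the labels. With the former, an alternative chosen after seeing the data, the block gave 51, 49 and 46 bins of 5mC.

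Bins of 100 kb and 1 Mb hide single sites, promoters and exons, coverage is unknown, and the 2 libraries of olfactory bulb and of cerebellum give a poor estimate of the 5mC spread. Levels per gene include sequence outside it wherever a bin crosses its end.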
